A study of Homo sapiens with 15 samples.

Results

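The genes described here lie next to each other on chromosome 14q23, from ACTR10 to PLEK2, and 44 of them were listed. They were chosen by their measured differences between T-DM1-resistant clones and parental BT474 cells, where GPX2 and PLEK2 stood out as higher. Of the 44, 23 have a probe set with a gene symbol and 22 of these passed the filter on dim probe sets, of 12147 tested genes in the series. RHOJ, a small GTPase, was measured but dim. The other 21 listed genes, among them HIF1A, PSMA3, MNAT1, PRKCH, SYNE2, MTHFD1, FNTB, FUT8 and EIF2S1, carried no symbol on their probe sets and were not analysed here.

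BT474 is a human breast cancer cell line with amplified HER2. T-DM1 (trastuzumab emtansine) is an antibody to HER2 that carries a microtubule poison into the cell. The resistant groups are clone C#1, clone C#2, clone C#3 and clone C#6, each grown from a single BT474 cell after long T-DM1 exposure and then kept for 3 months in 5 nM T-DM1, and the other group is the drug-sensitive parental line. There were 15 arrays, 3 for each group, labelled as biological replicates, and p-values measure only the spread between such arrays. Each clone is a single clone, and no clone raised without the drug was measured, so drug resistance, cloning and long culture with T-DM1 cannot be told apart. DNA copy number was not measured.

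The stretch holds genes of unrelated function that share a position. Neighbouring genes of a cancer cell line share their DNA copy number and parts of their chromatin, while each gene also has regulators of its own. GPX2 is a selenium-dependent glutathione peroxidase, best known from the gut epithelium, which uses glutathione to reduce hydrogen peroxide and lipid peroxides. PLEK2, pleckstrin 2, binds membrane phosphoinositides and takes part in actin rearrangement and cell spreading.

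All values are the authors' log2 expression values, so that a difference of 1 is a doubling. The upper quartile of the arrays lay between 5.80 and 5.89 in the clones and between 5.94 and 5.96 in parental cells. Of 10 luminal breast markers, 9 were measured and all 9 passed the filter on dim probe sets, with array means of 8.73 to 9.10 in the clones and 9.23 to 9.24 in parental cells. Single markers moved apart: GATA3 differed from parental cells by -2.89, -3.14, -0.76 and -2.36 in clone C#1, clone C#2, clone C#3 and clone C#6 and ESR1 by -0.84 to -0.43, both called lower in every clone, while TFF1 was called higher in every clone, by 0.58 to 1.51. Their part in the members' differences was not tested. Fibroblast (DCN, LUM), leukocyte (LYZ, CD14) and endothelial (PECAM1, KDR, VWF) markers had array means of 2.69 to 2.91, 3.24 to 3.79 and 3.24 to 3.58 in the clones, against 2.69 to 2.93, 3.34 to 3.49 and 3.32 to 3.52 in parental cells. Basal markers (KRT5, KRT14) averaged 3.44 to 3.81 in the clones and 3.58 to 3.72 in parental cells. In RNA from a whole culture, a higher level in each cell and a larger share of cells that express a gene cannot be told apart.

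The stretch was not evenly higher in the clones. The median difference of the 22 tested members from parental cells was 0.33 in clone C#1, 0.23 in clone C#2, 0.20 in clone C#3 and 0.21 in clone C#6, beside -0.02, -0.02, 0.00 and -0.02 over all tested genes. At an adjusted p below 0.05 in limma, a linear model test for arrays, 12 members were called higher in clone C#1, 8 in clone C#2, 9 in clone C#3 and 6 in clone C#6. Of all tested genes, 6.03%, 5.47%, 6.22% and 7.73% were called higher in these clones. No member was called lower in any clone, beside 11.2%, 11.5%, 11.0% and 14.7% of all tested genes in clone C#1, clone C#2, clone C#3 and clone C#6. Since this contrast chose the members, these counts only describe them. They also lean on single arrays: without parental replicate 3 the counts for clones C#1 and C#3 were 5 each, and without clone C#1 replicate 2 the count for clone C#1 was 7.

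In 6 members, JKAMP, DHRS7, TRMT5, SGPP1, GPX2 and PLEK2, every one of the 12 clone arrays lay above every parental array, which held for 3.04% of all tested genes. No tested gene was called between clones C#1 and C#2, so these clones may not count as separate instances. In 12 members the mean of each of the 4 clones was above the parental mean. All clones were compared with the same parental arrays, and the share of all tested genes with this pattern was not counted. At the other end, 7 members (GPR135, L3HYPDH, RTN1, PCNX4, SIX6, ESR2 and MAX) stayed within 0.25 of the parental mean in every clone. Of these, GPR135, ESR2, SIX6, L3HYPDH and RTN1 are dim, with parental means of 3.91 to 4.45, where differences are compressed. The share of all tested genes within this limit was not counted.

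**Figure D1:**
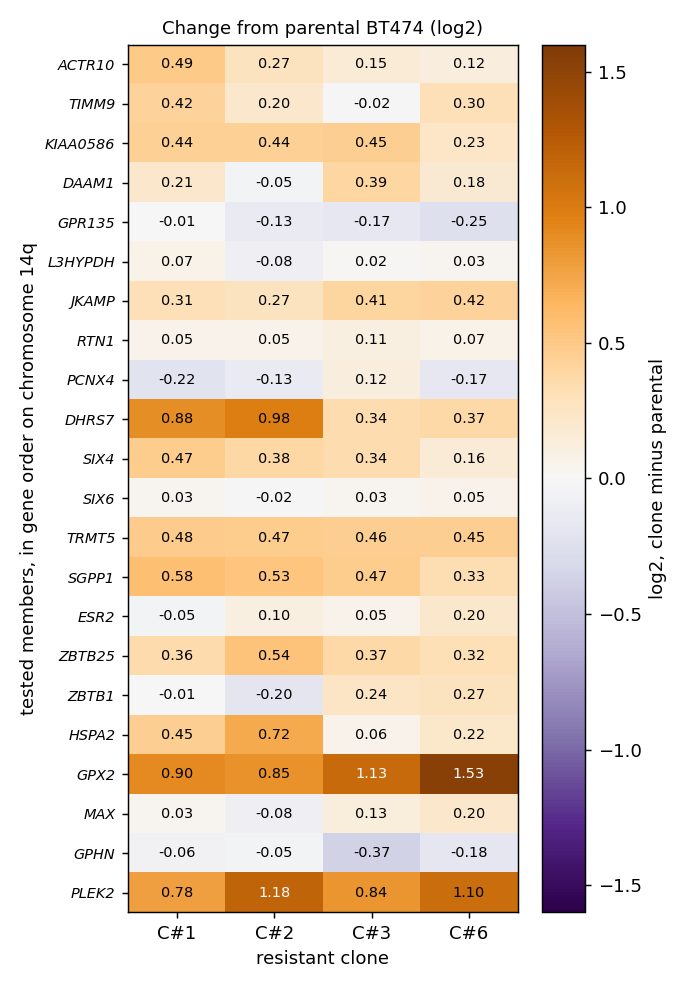
Log2 difference from the parental mean (colour and printed value) of the 22 tested members, in gene order from top to bottom, in the 4 resistant clones from left to right. DHRS7, GPX2 and PLEK2 hold the highest values and are separated by members near 0, such as SIX6 (dim, with a parental mean of 3.99) and MAX.

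Among genes of metabolism and redox chemistry, GPX2 had the highest difference among the listed members. It measured 5.80, 6.83 and 6.13 in clone C#1, 5.99, 6.57 and 6.05 in clone C#2, 6.18, 6.74 and 6.55 in clone C#3 and 6.56, 7.19 and 6.90 in clone C#6, against 5.42, 5.52 and 5.13 in parental cells. All clone arrays were above the parental ones, and the array numbered 2 was the highest of its group in all 5 groups. The differences were 0.90, 0.85, 1.13 and 1.53 in clone C#1, clone C#2, clone C#3 and clone C#6 (SE 0.24), or 1.86-, 1.80-, 2.19- and 2.88-fold. The calls of GPX2 in clones C#1 and C#2 were lost without parental replicate 3 (0.78 and 0.74) or without replicate 2 of the clone itself (0.61 and 0.66).

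The bases before the start of GPX2 are shown because this gene had the highest difference among the listed members and is a known target of the antioxidant response. They lie at chr14:64942746-64942995 on the minus strand (GRCh38.p14, from RefSeq), given 5′ to 3′ and ending at the base before the start. Capitals mark, from left to right, a CCAAT box read on the opposite strand at position -237 and an antioxidant response element core, TGACNNNGC, read on the opposite strand at position -122, both counted from the start.
GPX2: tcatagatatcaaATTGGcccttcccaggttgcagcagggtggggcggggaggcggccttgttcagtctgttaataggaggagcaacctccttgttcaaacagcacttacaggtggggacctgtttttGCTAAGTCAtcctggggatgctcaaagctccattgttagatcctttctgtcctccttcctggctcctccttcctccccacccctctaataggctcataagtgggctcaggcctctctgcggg

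DHRS7, a short-chain dehydrogenase/reductase, was the metabolic member with the clearest split between clones. It measured 8.10, 7.97 and 7.92 in clone C#1, 8.14, 8.10 and 8.03 in clone C#2, 7.58, 7.40 and 7.37 in clone C#3 and 7.41, 7.48 and 7.54 in clone C#6, against 7.24, 7.08 and 7.02 in parental cells. All clone arrays exceeded the parental ones, and those of clones C#1 and C#2 also exceeded all of clones C#3 and C#6. The differences from parental cells were 0.88 and 0.98 in clones C#1 and C#2 and 0.34 and 0.37 in clones C#3 and C#6 (SE 0.10). Its calls in clone C#3 (without parental replicate 2 or 3 or clone C#3 replicate 1, 0.27 to 0.32) and in clone C#6 (without parental replicate 3, 0.32) were lost.

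SGPP1, which removes the phosphate from sphingosine 1-phosphate, a lipid signal, measured 7.31, 7.23 and 7.48 in clone C#1, 7.15, 7.42 and 7.31 in clone C#2, 7.18, 7.36 and 7.17 in clone C#3 and 7.10, 7.01 and 7.18 in clone C#6, against 6.88, 6.69 and 6.71 in parental cells. The groups of clone and parental arrays did not overlap. The differences were 0.58, 0.53, 0.47 and 0.33 (SE 0.11), and the call in clone C#6 was lost without any one of 4 arrays, parental replicates 2 and 3 and clone C#6 replicates 1 and 3 (0.29 to 0.33). L3HYPDH, a dehydratase of a hydroxyproline, differed by -0.08 to 0.07 (SE 0.18).

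PLEK2 led the members linked to the cytoskeleton and membrane signalling. It measured 7.82, 7.77 and 7.42 in clone C#1, 8.14, 8.17 and 7.89 in clone C#2, 7.70, 7.66 and 7.82 in clone C#3 and 7.96, 8.06 and 7.93 in clone C#6, against 7.11, 6.78 and 6.77 in parental cells. No clone array overlapped the parental ones. The differences were 0.78, 1.18, 0.84 and 1.1 (SE 0.13), or 1.72-, 2.26-, 1.79- and 2.14-fold, and the call held in each clone without any one array.

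The bases before the start of PLEK2, the last gene of the stretch, lie at chr14:67412166-67412415 on the minus strand (GRCh38.p14, from RefSeq). Capitals mark the hypoxia response element core, ACGTG, read on the opposite strand at position -94 from the start. No antioxidant response element core and no CCAAT box was found in these letters.
PLEK2: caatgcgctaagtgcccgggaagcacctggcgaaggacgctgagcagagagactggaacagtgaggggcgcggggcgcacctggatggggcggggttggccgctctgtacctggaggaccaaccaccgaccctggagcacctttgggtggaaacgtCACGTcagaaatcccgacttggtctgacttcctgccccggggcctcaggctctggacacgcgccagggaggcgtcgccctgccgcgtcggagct

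KIAA0586, needed to build cilia, measured 7.98, 8.10 and 8.24 in clone C#1, 7.92, 8.12 and 8.26 in clone C#2, 8.03, 8.19 and 8.10 in clone C#3 and 7.70, 8.05 and 7.91 in clone C#6, against 7.76, 7.65 and 7.57 in parental cells. Only 1 array, of clone C#6, lay within the parental range. The differences were 0.44, 0.44, 0.45 and 0.23 (SE 0.12), and each of the 3 calls, in clones C#1, C#2 and C#3, was lost without parental replicate 3 (0.40 each) or without 1 array of the clone itself (0.36 to 0.40).

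ACTR10, a dynactin subunit at the start of the stretch, measured 7.05, 7.18 and 7.28 in clone C#1, 6.95, 6.91 and 7.0 in clone C#2, 6.83, 7.05 and 6.63 in clone C#3 and 6.95, 6.70 and 6.76 in clone C#6, against 6.61, 6.57 and 6.85 in parental cells. Clones C#1 and C#2 lay above parental cells, while clones C#3 and C#6 overlapped them. The differences were 0.49, 0.27, 0.15 and 0.12 (SE 0.12). DAAM1, a formin that builds actin filaments, measured 7.88, 8.02 and 8.06 in clone C#1, 7.65, 7.82 and 7.72 in clone C#2, 8.30, 8.27 and 7.92 in clone C#3 and 8.07, 7.93 and 7.87 in clone C#6, against 7.71, 7.84 and 7.78 in parental cells. Here clone C#2 was the group that overlapped parental cells, with differences of 0.21, -0.05, 0.39 and 0.18 (SE 0.11), and the call in clone C#3 was lost without parental replicate 1 or 3 or clone C#3 replicate 1 or 2 (0.32 to 0.39). RHOJ, the dim member, differed by -0.11 to 0.19, with levels of 2.85 to 3.47 in the clones and 3.07 to 3.20 in parental cells.

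**Figure D2:**
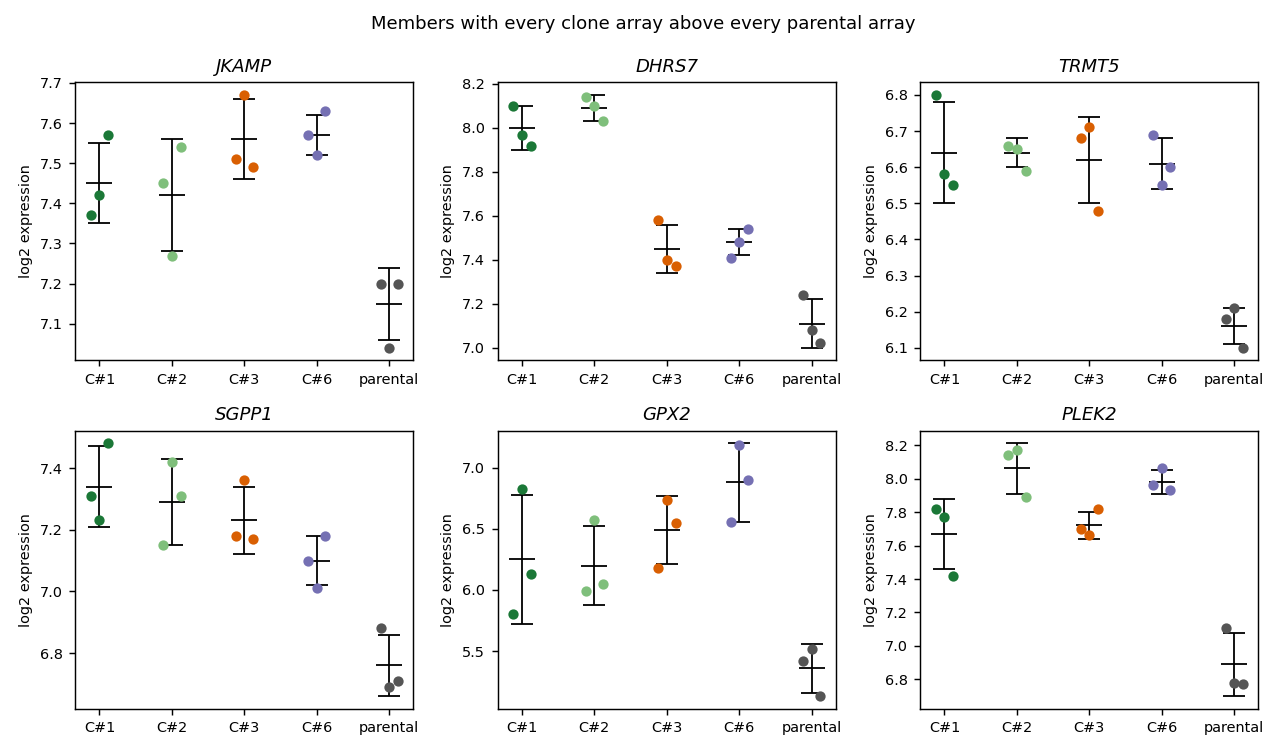
Log2 expression of the 6 members whose clone arrays all lie above the parental arrays, for clone C#1, clone C#2, clone C#3 and clone C#6 and for parental cells (points, single arrays, bars, mean and SD, n = 3, axes that start above 0 and differ between genes). DHRS7 forms an upper level in clones C#1 and C#2 (8.0 and 8.09) and a middle level in clones C#3 and C#6 (7.45 and 7.48), while TRMT5 is between 6.61 and 6.64 in all 4 clones.

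TRMT5, a methyltransferase that modifies tRNA next to the anticodon, had nearly the same mean in each clone. It measured 6.80, 6.58 and 6.55 in clone C#1, 6.66, 6.65 and 6.59 in clone C#2, 6.68, 6.71 and 6.48 in clone C#3 and 6.69, 6.55 and 6.60 in clone C#6, against 6.18, 6.21 and 6.10 in parental cells. The differences were 0.48, 0.47, 0.46 and 0.45 (SE 0.10). A dimmer probe set of TRMT5 went another way: it measured 4.42, 4.31 and 4.46 in clone C#1, 4.14, 3.82 and 3.45 in clone C#2, 3.57, 3.31 and 3.62 in clone C#3 and 3.71, 3.72 and 3.11 in clone C#6, against 3.09, 3.03 and 3.39 in parental cells. There the difference was 1.23 in clone C#1 and 0.33 to 0.63 in the other clones, so the even level of TRMT5 rests on the brighter probe set.

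JKAMP, a membrane protein of the endoplasmic reticulum linked to protein quality control, measured 7.37, 7.42 and 7.57 in clone C#1, 7.45, 7.27 and 7.54 in clone C#2, 7.51, 7.67 and 7.49 in clone C#3 and 7.57, 7.52 and 7.63 in clone C#6, against 7.20, 7.04 and 7.20 in parental cells. Its groups did not overlap, although the differences were small, at 0.31, 0.27, 0.41 and 0.42 (SE 0.10). The call in clone C#1 was lost without any one of 11 arrays (0.25 to 0.35) and that in clone C#3 without parental replicate 2 (0.36).

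TIMM9, a chaperone of the mitochondrial intermembrane space, measured 6.62, 6.65 and 6.67 in clone C#1, 6.48, 6.32 and 6.47 in clone C#2, 6.24, 6.39 and 5.99 in clone C#3 and 6.46, 6.59 and 6.51 in clone C#6, against 6.36, 6.14 and 6.18 in parental cells. Clones C#1 and C#6 lay above parental cells and clone C#3 on both sides of them, with differences of 0.42, 0.20, -0.02 and 0.30 (SE 0.11). The call in clone C#1 was lost without parental replicate 2 or 3 (0.38 and 0.40). HSPA2, a chaperone of the heat shock protein 70 family that is abundant in testis, measured 5.82, 5.38 and 5.17 in clone C#1, 5.88, 5.60 and 5.71 in clone C#2, 5.09, 4.89 and 5.22 in clone C#3 and 5.14, 5.24 and 5.30 in clone C#6, against 4.93, 5.12 and 4.98 in parental cells. Only clone C#3 overlapped the parental arrays. The differences were 0.45, 0.72, 0.06 and 0.22 (SE 0.14), and the call in clone C#1 was lost without any one of 5 arrays (0.26 to 0.50).

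Of the 6 tested transcription factors of the stretch, 2, 1, 1 and 0 were called higher in clone C#1, clone C#2, clone C#3 and clone C#6, and 3 (SIX6, ESR2 and MAX) stayed within 0.25 of the parental mean in every clone. Over all tested genes, 6.03%, 5.47%, 6.22% and 7.73% were called higher in these clones. SIX4, a homeobox factor, measured 7.45, 7.61 and 7.94 in clone C#1, 7.30, 7.56 and 7.85 in clone C#2, 7.55, 7.61 and 7.44 in clone C#3 and 7.24, 7.33 and 7.49 in clone C#6, against 7.19, 7.37 and 7.02 in parental cells. It was called in clone C#1 alone, by 0.47, a call lost without any one of 4 arrays (0.33 to 0.50), beside 0.38, 0.34 and 0.16 in clones C#2, C#3 and C#6 (SE 0.15). ZBTB25, a zinc finger protein, measured 5.68, 5.63 and 5.54 in clone C#1, 5.77, 5.71 and 5.92 in clone C#2, 5.78, 5.68 and 5.42 in clone C#3 and 5.58, 5.48 and 5.66 in clone C#6, against 5.46, 5.19 and 5.12 in parental cells. Only 1 array, of clone C#3, lay within the parental range. The differences were 0.36, 0.54, 0.37 and 0.32 (SE 0.12). Its calls in clones C#1 and C#3 were lost without any one of 5 and 4 arrays (0.29 to 0.40 and 0.30 to 0.35) and with arrays centred on their median.

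ZBTB1, the neighbour of ZBTB25 and a zinc finger factor known from lymphocyte development, measured 6.11, 5.83 and 6.12 in clone C#1, 5.85, 5.79 and 5.85 in clone C#2, 6.31, 6.21 and 6.27 in clone C#3 and 6.33, 6.22 and 6.34 in clone C#6, against 5.95, 5.96 and 6.17 in parental cells. Clone C#2 lay below parental cells and clones C#3 and C#6 above them, although none of the differences of -0.01, -0.20, 0.24 and 0.27 (SE 0.10) was called. MAX, the partner that MYC needs to bind DNA, differed by -0.08 to 0.20 (SE 0.10). With renewed quantile normalization MAX was called higher in clone C#6, by 0.30 (limma adjusted p = 0.0393). ESR2, oestrogen receptor beta, differed by -0.05 to 0.20 (SE 0.16) from a dim parental mean of 3.95, and SIX6, a homeobox factor of the developing eye, by -0.02 to 0.05 (SE 0.11) from 3.99.

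Some differences from parental cells that were not called with all arrays were called when 1 array was left out. These were TIMM9 (0.30 to 0.36), ZBTB25 (0.32 to 0.42) and ZBTB1 (0.27 to 0.34) in clone C#6, without parental replicate 1 or 3 or 1 array of another clone, and JKAMP (0.35) and SIX4 (0.51) in clone C#2, without 1 array of that clone. With all arrays in, renewed quantile normalization also called all 5 (adjusted p = 0.00735 for TIMM9, 0.024 for ZBTB25 and 0.00863 for ZBTB1 in clone C#6, and 0.00884 for JKAMP and 0.0272 for SIX4 in clone C#2, all from limma). The same setting called ACTR10 higher in clone C#2 (0.38, limma adjusted p = 0.0281). In clone C#3 it called SIX4 (0.43, limma adjusted p = 0.0482) and ZBTB1 (0.31, limma adjusted p = 0.0399).

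The remaining members were not called in any clone in the fit used here. GPHN, gephyrin, which anchors inhibitory neurotransmitter receptors and makes the molybdenum cofactor, measured 7.04, 7.58 and 7.56 in clone C#1, 7.28, 7.50 and 7.45 in clone C#2, 6.94, 7.31 and 7.02 in clone C#3 and 7.02, 7.39 and 7.43 in clone C#6, against 7.48, 7.30 and 7.59 in parental cells. No clone array was above the highest parental one, and the differences were -0.06, -0.05, -0.37 and -0.18 (SE 0.15). PCNX4, a pecanex family membrane protein, differed by -0.22 to 0.12 (SE 0.15), GPR135, an orphan receptor, by -0.25 to -0.01 (SE 0.12; with array weights it was called lower in clone C#6, by -0.30, limma adjusted p = 0.032) and RTN1, a reticulon of the endoplasmic reticulum, by 0.05 to 0.11 (SE 0.09).

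Comparisons between clones use no parental mean, and the parental arrays enter only the estimate of the spread. The clone arrays did enter the choice of the members, by their differences from parental cells, so these tests are not independent of that choice. An F test among the clones, in the same limma fit and adjusted over all tested genes, called 4 of the 22 members, or 18.2%, beside 22.5% of all tested genes. They were DHRS7 (adjusted p = 0.000137), ZBTB1 (0.00621), HSPA2 (0.0119) and TIMM9 (0.0309). The share is below that of all tested genes. The call of TIMM9 was lost without clone C#1 replicate 2 or 3 or clone C#3 replicate 1 or 3 (adjusted p = 0.0671 to 0.121).

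Between single clones, 5 members were called in at least 1 pair, and only DHRS7 set both clones C#1 and C#2 apart from both clones C#3 and C#6. Clones C#1 and C#2 differed in 0 members (0.0% of all tested genes were called) and clones C#3 and C#6 in 0 members (9.01% of all tested genes), with 2 and 1 members at an unadjusted p below 0.05 in limma. Clones C#1 and C#3 differed in 2 members (16.8% of all tested genes), clones C#1 and C#6 in 1 member (12.7%), clones C#2 and C#3 in 4 members (15.8%) and clones C#2 and C#6 in 3 members (11.2%). The members' counts are to be read against these shares of all tested genes and show nothing particular to the stretch. These 6 comparisons share clones and are not independent of each other.

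DHRS7 was in all 4 of the comparisons with called members. It was higher by 0.54 in clone C#1 and by 0.64 in clone C#2 than in clone C#3 (limma adjusted p = 0.00103 and 0.000291), and higher by 0.52 and 0.61 than in clone C#6 (adjusted p = 0.00219 and 0.000679; SE 0.10). HSPA2 was higher in clone C#2 than in clone C#3 by 0.66 (limma adjusted p = 0.0044) and than in clone C#6 by 0.50 (adjusted p = 0.0308, SE 0.14), the second being lost without any one of 5 arrays of these 2 clones (0.43 to 0.54, adjusted p up to 0.114). ZBTB1 ran the other way, with a difference of -0.43 between clones C#2 and C#3 (limma adjusted p = 0.00701) and -0.47 between clones C#2 and C#6 (adjusted p = 0.00563, SE 0.10). DAAM1 differed by -0.43 between clones C#2 and C#3 (limma adjusted p = 0.0136), a call lost without clone C#2 replicate 1 or clone C#3 replicate 1 or 2 (-0.39 to -0.36, adjusted p up to 0.067) and when only these clones were fitted (-0.43, adjusted p = 0.0632). TIMM9 differed by 0.44 between clones C#1 and C#3 (limma adjusted p = 0.00942), a call lost without clone C#3 replicate 3 (0.33, adjusted p = 0.0539).

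**Figure D3:**
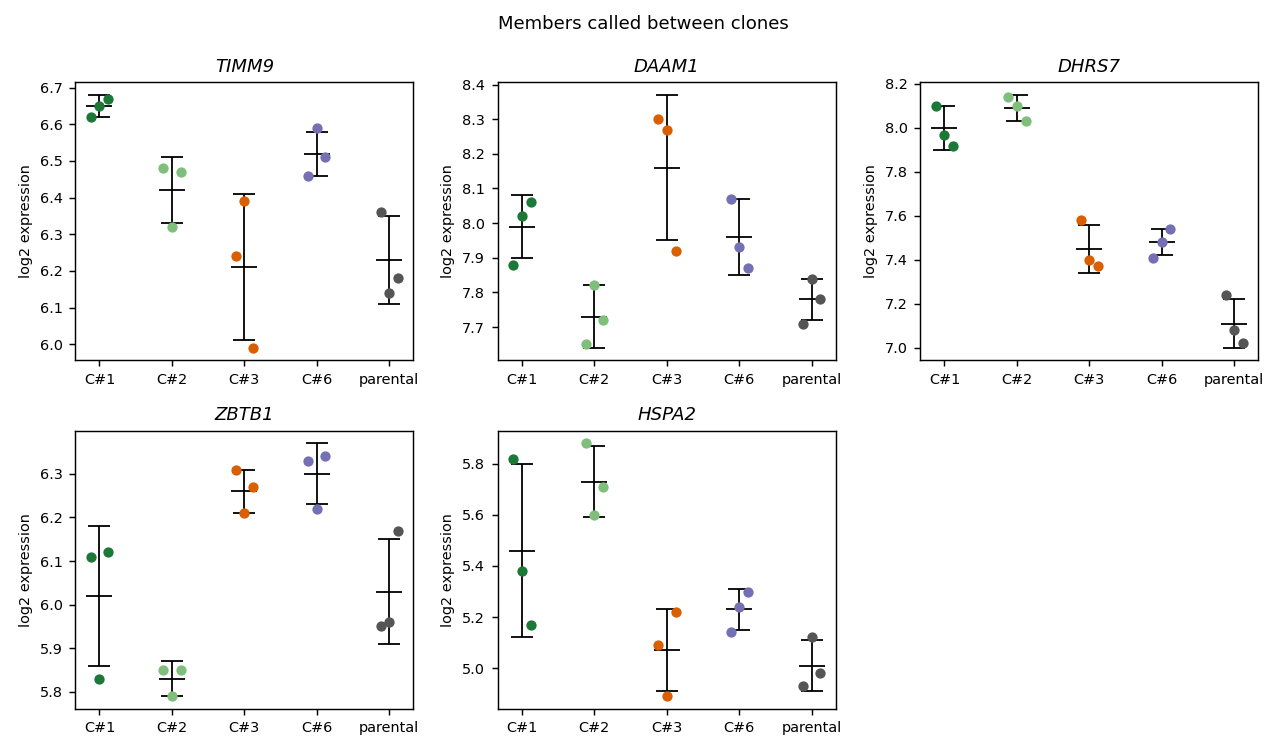
Log2 expression of the 5 members called between single clones, for clone C#1, clone C#2, clone C#3 and clone C#6 and for parental cells (points, single arrays, bars, mean and SD, n = 3, axes that start above 0 and differ between genes). DHRS7 and HSPA2 are highest in clone C#2 (8.09 and 5.73), where ZBTB1 and DAAM1 are lowest (5.83 and 7.73).

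With all arrays in the fit, GPX2 and PLEK2 were not called between any clones. GPX2 differed by -0.63 between clones C#1 and C#6 (limma adjusted p = 0.096) and by -0.68 between clones C#2 and C#6 (adjusted p = 0.0767, SE 0.24). Arrays of clones C#1 and C#6 with the same replicate number deviated together over all tested genes (r = 0.175 to 0.221), and with a replicate block the difference of GPX2 between these clones was called (adjusted p = 0.00849). PLEK2 differed by 0.34 between clones C#2 and C#3 (limma adjusted p = 0.0797, SE 0.13) and by -0.39 between clones C#1 and C#2 (adjusted p = 0.628). The adjustment is made within each pair of clones, so adjusted p-values of different pairs cannot be compared. The PLEK2 arrays of clone C#1 (7.42 to 7.82) and clone C#2 (7.89 to 8.17) did not overlap. Without clone C#1 replicate 2 the difference of GPX2 between clones C#1 and C#6 was -0.92 and was called (adjusted p = 0.0142 in limma), and that between clones C#2 and C#6 was called without any one of 3 arrays, clone C#1 replicate 2, clone C#2 replicate 2 or clone C#6 replicate 1 (-0.86 to -0.68). PLEK2 was called between clones C#2 and C#3 without clone C#2 replicate 3 (0.43, limma adjusted p = 0.0462). ACTR10 differed by 0.34 between clones C#1 and C#3, called without clone C#3 replicate 2 (0.44), and by 0.37 between clones C#1 and C#6, called without any one of 4 arrays (0.37 to 0.44). Without 1 array, HSPA2 was also called between clones C#1 and C#3 (0.53, without clone C#1 replicate 3), TIMM9 between clones C#3 and C#6 (-0.41, without clone C#3 replicate 2) and GPHN between clones C#1 and C#3 (0.48, without clone C#1 replicate 1). For TRMT5, no pair of clones differed by more than 0.03 (SE 0.10).

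Of the 22 tested members, 3 pairs are divergent neighbours, transcribed away from each other from starts that lie so close that the promoter windows overlap in RefSeq's table (300 bases a window). They are TIMM9 and KIAA0586 (287 bases of overlap), L3HYPDH and JKAMP (208) and ZBTB25 and ZBTB1 (148). For another pair of starts of ZBTB25 and ZBTB1 the windows overlap by 22 bases. There the ZBTB1 start minus the ZBTB25 start is -77, so transcripts from these starts overlap. The 2 genes of a pair differed from parental cells by different amounts in at least some clones. JKAMP had differences of 0.27 to 0.42 in the 4 clones and L3HYPDH of -0.08 to 0.07. ZBTB25 and ZBTB1 stood at 0.54 and -0.20 in clone C#2, but at 0.32 and 0.27 in clone C#6. KIAA0586 and TIMM9 stood at 0.45 and -0.02 in clone C#3, but at 0.44 and 0.42 in clone C#1. The difference between the genes of a pair was not tested, since the contrast with parental cells chose the members, and L3HYPDH is dim, with a parental mean of 4.10.

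The bases between the starts of L3HYPDH and JKAMP are shown because they precede both genes. They lie at chr14:59484409-59484516 (GRCh38.p14, from RefSeq), given on the plus strand, with JKAMP to the right and L3HYPDH to the left. These 108 bases are 71.3% G and C, and capitals mark the hypoxia response element core on the opposite strand.
JKAMP and L3HYPDH: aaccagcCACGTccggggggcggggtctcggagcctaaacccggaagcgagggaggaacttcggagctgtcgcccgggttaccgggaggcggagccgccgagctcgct

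**Figure D4:**
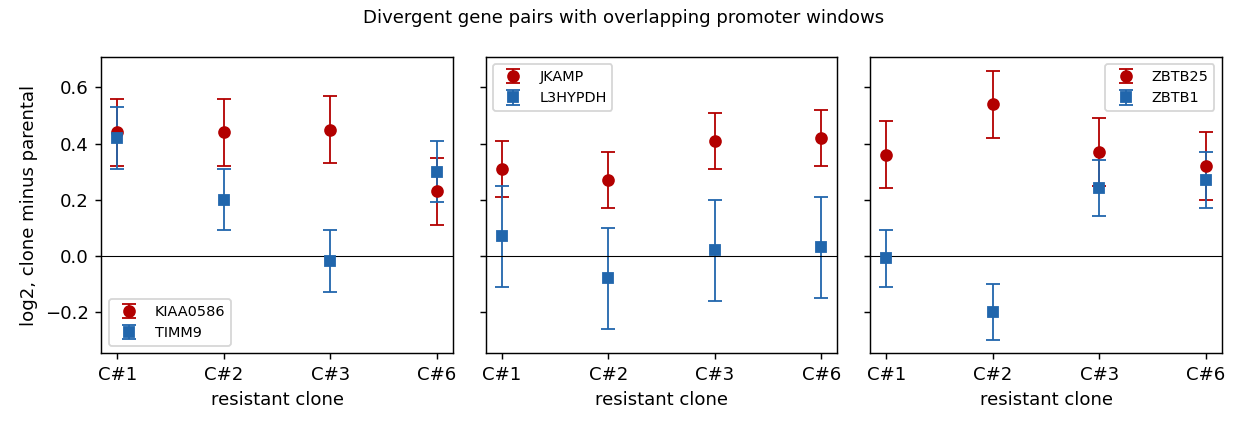
Log2 difference from parental cells, with its SE from limma, of the 3 divergent gene pairs in clone C#1, clone C#2, clone C#3 and clone C#6 (circles, KIAA0586, JKAMP and ZBTB25, squares, TIMM9, L3HYPDH and ZBTB1). JKAMP lies above L3HYPDH in all 4 clones, while ZBTB25 and ZBTB1 are apart in clone C#2 (0.54 and -0.20) and close in clone C#6 (0.32 and 0.27).

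Promoter entries were matched for 19 of the 22 tested members (33 windows), all but ACTR10, DHRS7 and SGPP1. Both strands of the 250 bases before each start were searched. The hypoxia response element core, ACGTG, was in 45.5% of the members' windows (12 genes) and in 18.5% of all 35116 windows. The genes were PLEK2, TRMT5, JKAMP, KIAA0586, ZBTB25, ZBTB1, GPR135, L3HYPDH, RTN1, PCNX4, ESR2 and MAX, and GPX2 was not among them. Of these, GPR135, L3HYPDH, RTN1, PCNX4, ESR2 and MAX stayed within 0.25 of the parental mean in every clone. The antioxidant response element core was in 12.1% of the members' windows (GPX2, JKAMP and ESR2) and in 10.9% of all windows, and the E-box, CACGTG, which contains the hypoxia core, was in 12.1% and 6.34%. The CCAAT box was in 33.3% and 32.0%, and the TATA box, TATAAA, in 3.03% and 10.7%. Windows of a gene or of a divergent pair overlap and are not independent, and the members' windows held a median of 61.6% G and C, beside 58.0% over all windows.

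On both sides of the stretch some genes outside it were also called higher in the clones. Just inside it, ACTR10 differed by 0.12 to 0.49 and PLEK2 by 0.78 to 1.18. Just outside, EXOC5 differed by 0.15 to 0.34 on the ACTR10 side, where CCDC198 (0.02 to 0.21) and OTX2 (-0.10 to 0.20) were dim. On the PLEK2 side, TMEM229B differed by -0.20 to 0.17, VTI1B by 0.06 to 0.43 and RDH11, a retinol dehydrogenase, by 0.47 to 0.90. RDH11 measured 8.57, 8.46 and 8.54 in clone C#1, 8.46, 8.50 and 8.51 in clone C#2, 8.67, 8.47 and 8.51 in clone C#3 and 9.06, 8.75 and 8.92 in clone C#6, against 8.06, 7.97 and 8.01 in parental cells, with no overlap.

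A further 7 tested genes lie inside the stretch but were not listed, and 3 of them, HIF1A-AS2, WDR89 and TMEM30B, had all 12 clone arrays above the parental ones. HIF1A-AS2, a noncoding RNA antisense to HIF1A, measured 4.96, 4.89 and 5.70 in clone C#1, 5.14, 4.92 and 4.30 in clone C#2, 4.19, 3.98 and 4.23 in clone C#3 and 5.22, 5.14 and 4.53 in clone C#6, against 3.74, 3.40 and 3.58 in parental cells. Its differences of 1.61, 1.22, 0.56 and 1.39 (SE 0.23) reach above those of every listed member in clones C#1 and C#2, and the clones differed in the F test (limma adjusted p = 0.0142). HIF1A-AS2 was called higher in clones C#1, C#2 and C#6 but not in clone C#3, and it is dim in parental cells, with a mean of 3.57. The sources used here do not give the strand that its probe set reads. WDR89 differed by 0.33 to 0.59 and TMEM30B, a subunit of lipid flippases, by 0.21 to 0.44. PSMA3-AS1 differed by -0.43 to 0.07, LINC03033 by -0.20 to 0.31, AKAP5 by 0.07 to 0.17 and MIR4708 by -0.04 to 0.20.

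Higher levels also occurred further out. Of the 25 tested genes before ACTR10, 8, 4, 6 and 5 were called higher and 1, 0, 0 and 2 lower in clone C#1, clone C#2, clone C#3 and clone C#6, with medians of 0.27, 0.14, 0.17 and 0.15. Of the 25 after PLEK2, 3, 3, 3 and 4 were called higher and 0, 1, 0 and 0 lower, with medians of 0.09, 0.13, 0.17 and 0.05. Over the other 304 tested genes of chromosome 14, 32, 28, 23 and 36 were called higher and 18, 16, 22 and 14 lower, with medians of 0.06, 0.07, 0.04 and 0.05. The shares called higher there, 10.5%, 9.21%, 7.57% and 11.8%, can be set beside the 6.03%, 5.47%, 6.22% and 7.73% of all tested genes. All 12 clone arrays lay above the parental ones in 5 genes before, 3 genes after and 18 (5.92%) of the other chromosome 14 genes.

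**Figure D5:**
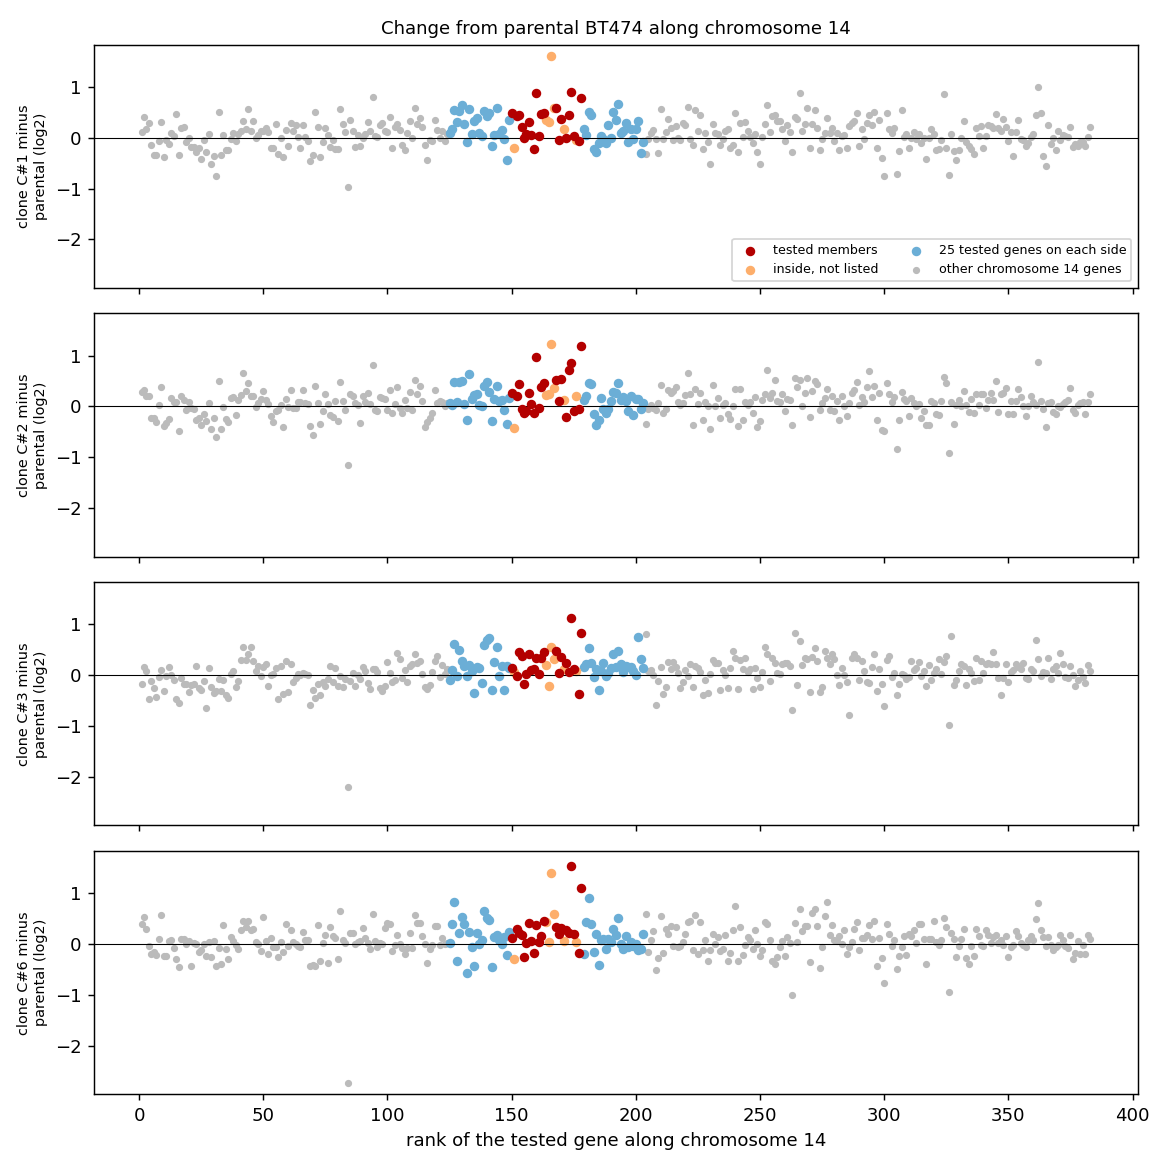
Log2 difference from parental cells of the 383 tested genes of chromosome 14, by rank along the chromosome, with a panel each for clone C#1, clone C#2, clone C#3 and clone C#6. The 22 tested members lie between ranks 150 and 178, with GPX2 and PLEK2 among their highest points, the unlisted gene above them in clones C#1 and C#2 is HIF1A-AS2 (1.61 and 1.22), and the blue flanking genes hold further points above 0.

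Genes that work with the members were called in both directions. The shares of all tested genes called in clone C#1, clone C#2, clone C#3 and clone C#6 were 6.03%, 5.47%, 6.22% and 7.73% higher. Those called lower were 11.2%, 11.5%, 11.0% and 14.7%. Of 5 other glutathione peroxidases, 4 were tested and 1 call was made, GPX4 in clone C#2 (0.37, SE 0.12), while GPX1 differed by -0.05 to 0.15. Of 19 genes of the antioxidant response, 9 were tested, of which 1, 1, 0 and 1 were called higher and 2, 3, 1 and 0 lower in clone C#1, clone C#2, clone C#3 and clone C#6. NFE2L2, the NRF2 factor that drives this response, differed by -0.41, -0.46, -0.20 and -0.24 (SE 0.12) and was called lower in clones C#1 and C#2. Of 12 partners of the MAX network, 10 were tested, of which 2, 1, 0 and 2 were called higher and 3, 2, 1 and 3 lower. Among them MYC differed by -1.30, -0.86, -1.74 and -1.49 (SE 0.31), called in all but clone C#2, and MXI1, a repressor that pairs with MAX, by 0.93, 0.70, 0.35 and 0.86 (SE 0.15), called in all but clone C#3.

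HIF1A itself was not analysed here, but 13 of 22 genes linked to it, targets among them, were tested. Of these, 4, 5, 2 and 5 were called higher and 0, 1, 1 and 2 lower in clone C#1, clone C#2, clone C#3 and clone C#6, with medians of 0.34, 0.38, -0.09 and 0.16. Over all tested genes, 6.03%, 5.47%, 6.22% and 7.73% were called higher and 11.2%, 11.5%, 11.0% and 14.7% lower. HK2, the glycolytic enzyme hexokinase 2, was called higher in each clone, by 0.68, 0.80, 0.60 and 0.87 (SE 0.11), and BNIP3, a mitophagy receptor, by 0.55, 0.58 and 0.69 in clones C#1, C#2 and C#6 (SE 0.16). LDHA, another glycolytic enzyme, was called lower in clones C#3 and C#6, by -0.86 and -0.29 (SE 0.09). EGLN1 was called lower in clone C#2, by -0.55 (SE 0.13). EGLN3 was called higher in clones C#1, C#2 and C#6, by 0.57, 0.48 and 0.66 (SE 0.15). KDM3A was called higher in clones C#1, C#3 and C#6, by 0.45, 0.41 and 0.38 (SE 0.13). Higher calls were also made for ANKRD37 in clones C#2 and C#6 (0.49 and 0.88, SE 0.16) and ADM in clone C#2 (0.55, SE 0.17). ARNT, the partner of HIF1A, differed by -0.19 to -0.08. EPAS1, the HIF-2 alpha subunit, differed by -0.38 to 0.02 and was called lower in clone C#6. Of 9 genes of the CDK-activating kinase and TFIIH, 2 were tested and CCNH was called lower in clone C#6 (-0.44, SE 0.14). Of 9 spectrins, nesprins and their partners, 2 were tested and SUN2 was called lower in clones C#3 and C#6. No listed PP2A B56 subunit, prenyltransferase, proteasome alpha subunit or eIF2 gene was tested here.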

How the data were processed

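The authors deposited log2 expression values of 53617 probe sets for 15 Affymetrix arrays. Tools named per the submitters' processing notes are Affymetrix Expression Console 1.4.1, the Transcriptome Analysis Console and RMA. The step each tool did, and the genome build behind the probe sets, are not given in the sources used here. Processing by RMA is meant to make the distributions of the arrays alike, which can remove a shift of most genes one way. It also compresses differences of dim probe sets. The deposited arrays were not fully alike, with upper quartiles of 5.80 to 5.89 in the clones and 5.94 to 5.96 in parental cells. Such an offset enters every difference from parental cells. With renewed quantile normalization the members' median difference was higher in every clone.

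Symbols came from the platform annotation (16098 probe sets with 1 symbol, 37519 with none) and gene order from the RefSeq table of GRCh38.p14, of which only the promoter windows' coordinates are printed. A probe set was kept if 3 or more arrays held it above their 40th percentile, and the one with the highest mean stood for a gene, which left 12147 genes. All 15 arrays entered one linear model with a mean for each group (limma 3.58.1, R 4.3.3), and adjusted p-values are Benjamini-Hochberg over all tested genes within a comparison. The steps were tested on simulated data. Members and lists were chosen with earlier results of these data known. Per-array values are given for the 14 tested members with the largest difference in any clone and for those called in the F test. Outside the list, values are given for the nearest 3 measured genes on each side, the tested genes inside the stretch and up to 3 called genes per context list. The called genes LDHA, EGLN1, EGLN3, KDM3A, ANKRD37 and ADM and a few uncalled ones (GPX1 and ARNT) were added after their values were seen. The SE is limma's and is the same for every comparison of a gene. Same-numbered arrays of different groups deviated together by a median r of 0.051 (-0.129 to 0.462, 30 pairs), and only for clones C#1 and C#6 was each of the 3 correlations above 0.1. Pairs with a parental array lay between -0.129 and 0.069, so this median understates the pairs of clones. Clones C#1 and C#2 had the highest median, 0.338 (0.094 to 0.462). Arrays with different numbers had a median r of -0.017 (-0.384 to 0.231). The replicate block changed some calls of GPX2 and PLEK2 between clones. The number of arrays limits the precision.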

Additional observations from a re-analysis of the deposited data

Results flagged for a closer look

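Several members of the stretch differed from parental cells by unequal amounts in the clones, by a direct test between clones (limma, adjusted over all tested genes, log2 differences of the first clone minus the second). DHRS7 (F test, adjusted p = 0.000137) differed by 0.54 between clones C#1 and C#3, 0.52 between clones C#1 and C#6, 0.64 between clones C#2 and C#3 and 0.61 between clones C#2 and C#6. HSPA2 (F test, adjusted p = 0.0119) differed by 0.66 between clones C#2 and C#3 and 0.50 between clones C#2 and C#6. ZBTB1 (F test, adjusted p = 0.00621) differed by -0.43 and -0.47 for the same pairs. TIMM9 (F test, adjusted p = 0.0309) differed by 0.44 between clones C#1 and C#3. DAAM1 differed by -0.43 between clones C#2 and C#3, while its F test missed the threshold (adjusted p = 0.0504). Groups of 3 arrays are too small for a test of single arrays that stand apart. What lies behind these differences was not tested.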

How the results depend on the processing

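No median difference of the members and no called difference of a single member changed its direction under the alternatives run. With renewed quantile normalization the median differences were 0.40, 0.33, 0.27 and 0.29 in clone C#1, clone C#2, clone C#3 and clone C#6, against 0.33, 0.23, 0.20 and 0.21, and with the stricter filter on dim probe sets they were 0.39 in clone C#1 and 0.29 in clone C#3. The members called higher in clone C#6 numbered 10 with renewed quantile normalization and 10 with array weights, against 6. Between clones C#1 and C#3, array weights called 5 members, against 2. Between clones C#1 and C#6, where 1 member was called, 2 were called with the stricter filter, renewed quantile normalization, the replicate block, trend and robust settings or the mean of all probe sets, and 3 with array weights. Between clones C#3 and C#6, renewed quantile normalization called 1, against 0. The cause was not tested. The shares of all tested genes called under these settings, or without single arrays, are not given here. These counts therefore do not show a change particular to the members.

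Leaving out 1 array at a time gave 5 to 12 members called higher in clone C#1 (lowest without parental replicate 3, and 7 without clone C#1 replicate 2) and 5 to 9 in clone C#3 (lowest without parental replicate 3), where fewer samples entered the fit. It gave 1 to 3 members between clones C#1 and C#3 (1 without clone C#3 replicate 3), 1 to 2 between clones C#1 and C#6 (2 without clone C#1 replicate 1 or 2, clone C#3 replicate 2 or 3, or clone C#6 replicate 1) and 0 to 1 between clones C#3 and C#6 (1 without clone C#3 replicate 2). The median difference ranged from 0.29 to 0.37 in clone C#1 and from 0.20 to 0.25 in clone C#6. The F test called 3 to 6 members. With the replicate block the F test called 6, which add GPX2 (adjusted p = 0.00781) and PLEK2 (adjusted p = 0.0424) to the 4. With the same block, the limma test between single clones called GPX2 between clones C#2 and C#6 (-0.68, adjusted p = 0.00556). Fitted on the 12 clone arrays alone, the F test missed TIMM9 (adjusted p = 0.0531). With the mean of both probe sets, TRMT5 was called among the clones (adjusted p = 0.0175). Neither DHRS7 nor ZBTB1 lost a call between clones without any one array. Dim members, such as L3HYPDH, ESR2, SIX6, GPR135 and RTN1, lie near the background, where differences are compressed.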

Other observations

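Around the stretch, 8 of the 50 flanking tested genes also had all 12 clone arrays above the 3 parental arrays. On the ACTR10 side these were TXNDC16 (differences from parental cells of 0.55, 0.48, 0.62 and 0.83 in clone C#1, clone C#2, clone C#3 and clone C#6), STYX (0.65, 0.50, 0.28 and 0.53), GCH1 (0.53, 0.41, 0.59 and 0.66), SOCS4 (0.48, 0.29, 0.74 and 0.47) and ATG14 (0.58, 0.41, 0.56 and 0.19). GCH1 makes the first product on the way to tetrahydrobiopterin, SOCS4 is a suppressor of cytokine signalling and ATG14 is a subunit of the lipid kinase that starts autophagosomes. On the PLEK2 side they were RDH11 (0.51, 0.47, 0.53 and 0.90), RAD51B, a DNA repair gene (0.45, 0.45, 0.24 and 0.39), and TTC9 (0.67, 0.47, 0.48 and 0.52). They were chosen after their values were seen.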
